A study of Mus musculus with 20 samples.

Results

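The quantity described here is the difference between the responses of 2 tissues to morphine. It is the log2 fold change of morphine over vehicle in trigeminal ganglia (TG) minus the same log2 fold change in nucleus accumbens (NAc), and is called the interaction below. A positive interaction means that a transcript stood higher after morphine in TG than in NAc, relative to the vehicle mice of each tissue. The contrast was taken over all 20 libraries of the series, with no choice of genes by their values. The libraries came from 10 male C57BL/6J mice of 9 to 12 weeks of age. Of these, 5 received morphine and 5 vehicle, and each mouse gave both tissues 24 h after its last injection, so that there were 4 groups of 5 libraries: TG after morphine, TG after vehicle, NAc after morphine and NAc after vehicle. The morphine mice carry the label OIH, which in this field stands for opioid-induced hyperalgesia, a raised sensitivity to pain that opioids themselves can bring about. The sources used here give neither the dose nor the number of injections.

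The trigeminal ganglion houses sensory neurons that serve the face and the meninges, wrapped by satellite glia, with axons wrapped by Schwann cells. The nucleus accumbens is the ventral part of the striatum and consists mainly of inhibitory medium spiny neurons that receive dopamine input. Morphine acts on the mu opioid receptor, a receptor coupled to inhibitory G proteins, which both tissues carry.

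The tissue labels matched the defining markers. Scn10a, a sodium channel of nociceptors, lay between 643 and 828 CPM (a gene's counts relative to the scaled total of its library) in the 10 TG libraries and between 1.12 and 3.76 CPM in the 10 NAc libraries. Drd1, the D1 dopamine receptor, lay between 0.621 and 1.17 CPM in TG and between 120 and 343 CPM in NAc. Library totals were 61285916 to 76110288 estimated counts for TG and 52402037 to 64357778 for NAc. Transcripts of neighbouring tissue varied between libraries of 1 group: the summed level of 6 cortical neuron genes ran from 11.9 to 866 CPM in NAc of vehicle mice and from 49.6 to 866 CPM in NAc of morphine mice, and that of 11 pituitary genes from 18.3 to 993 CPM and from 41.0 to 1278 CPM in TG of vehicle and morphine mice. A further difference between libraries bears on the contrast directly. Each library held a small share of transcripts typical of the other tissue. This share came from 36 genes at least 200-fold higher in TG and 28 in NAc, chosen by their levels in vehicle mice. Its mean differed by treatment in both tissues. In NAc libraries the TG-like share was 0.356% ± 0.0905 after vehicle and 0.171% ± 0.0282 after morphine (SD, n = 5). In TG libraries the NAc-like share was 0.311% ± 0.0575 after vehicle and 0.426% ± 0.0558 after morphine. The 28 genes had to be low in TG of vehicle mice, and that choice by itself favours a lower vehicle share in TG. How much of the difference in TG comes from the choice was not tested. The NAc library of vehicle mouse V5 (0.200%) lay among the morphine libraries of that tissue, which ran from 0.1503% to 0.220%. The TG library of V5 (0.408%) likewise lay within the range of the TG morphine libraries, 0.348% to 0.487%. A lower level in bulk tissue can stand for fewer cells of a type or for less RNA per cell, which cannot be told apart here.

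The response to morphine differed between the tissues for 13 of 33001 features (0.0394%), all of them named genes, at an adjusted p under 0.05 (quasi-likelihood test of edgeR, adjusted after Benjamini and Hochberg over all features). The interaction was positive for 11 (0.0333%) and negative for 2 (0.00606%). They fell into 4 patterns. Lnpep, Zfp292 and Arfgef3 were higher after morphine in TG and near their vehicle levels in NAc. The adjacent long noncoding RNA genes Gm33320 and Gm33449 were lower in TG and higher in NAc. Prelp, Itgb4, Serpinb1a, Pllp and Aebp1 were lower in NAc while TG stood level or higher. Tlx2, Trarg1 and Pirt, which belong to TG, were lower in NAc, where their mean level in vehicle mice was 0.302%, 0.374% and 0.345% of that in TG.

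Within the same fit, 62 features passed in TG alone (0.188%; 49 higher, 0.148%, and 13 lower, 0.0394%) and 73 in NAc alone (0.221%; 15 higher, 0.0455%, and 58 lower, 0.176%). A fit on the 10 libraries of a tissue called 53 in TG and 0 in NAc, with 1709 features at an unadjusted p under 0.05 in the latter, and the 73 calls come from the fit that shares 1 estimate of spread across both tissues. With the mouse as a block, which pairs the tissues of a mouse, edgeR called 1 interaction, that of Gm33320. Leaving out a single library gave between 6 calls and 33, and Lnpep, Zfp292, Itgb4, Prelp, Serpinb1a and Tlx2 were called in all 20 such fits. Of these, Tlx2 rested on 0 to 10 counts per NAc library and was filtered out of the fit on NAc alone. The median interaction over all features was 0.01, with 52.4% of features above 0 and 47.6% below. An unadjusted p under 0.05 was found for 6.82% of features, 3.88% with a positive and 2.94% with a negative interaction.

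**Figure D1:**
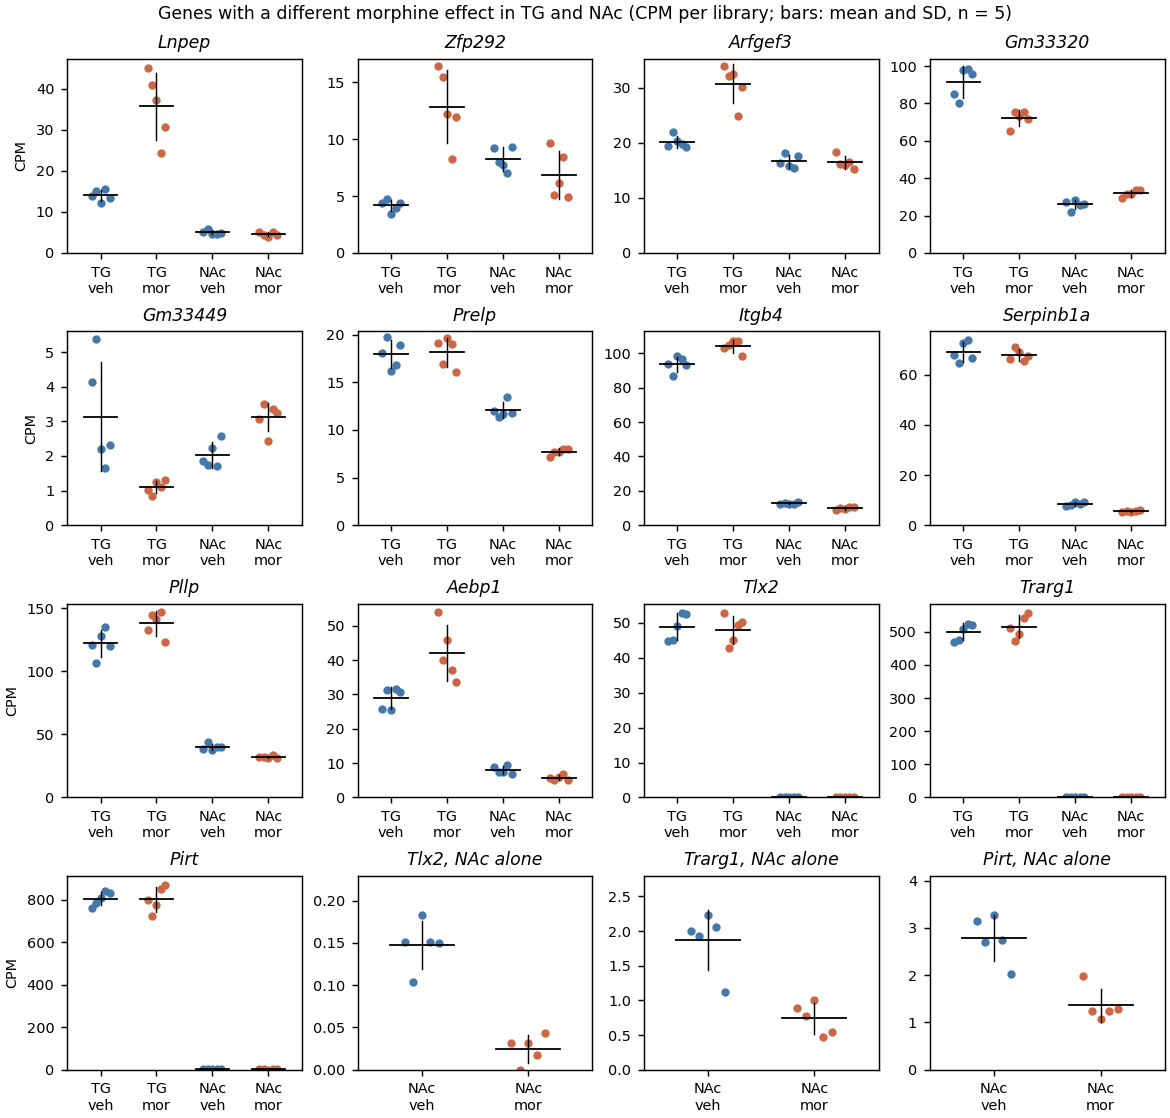
CPM of the 13 genes with a called interaction in each of the 20 libraries, by tissue and treatment (veh, vehicle; mor, morphine), with points for single libraries and bars for the mean and SD of 5. The 3 panels at the end repeat the NAc values of Tlx2, Trarg1 and Pirt on their own axis, since these reach 3.28 CPM at most against at least 42.8 CPM in TG.

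Lnpep, Zfp292 and Arfgef3 rose in TG after morphine without a rise in NAc. Lnpep encodes a membrane aminopeptidase that cleaves peptide hormones such as oxytocin and vasopressin and travels with the glucose transporter GLUT4. Zfp292 encodes a large zinc finger transcription factor. Arfgef3 belongs to the family of exchange factors for ARF GTPases, which act in vesicle traffic.

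Lnpep (gene 240028, GRCm38.p6 chromosome 17, 17527723 to 17624489) had 13.9, 15.1, 12.2, 15.5 and 13.3 CPM in TG of vehicle mice V1 to V5 and 45.2, 41.0, 37.3, 24.5 and 30.7 CPM in TG of morphine mice M1 to M5. Every morphine ganglion lay above every vehicle ganglion. In NAc the 5 vehicle libraries held 5.11, 5.73, 4.65, 4.61 and 4.95 CPM and the 5 morphine libraries 5.16, 4.39, 3.85, 4.97 and 4.43 CPM, and the groups overlapped. The difference was 2.55-fold in TG (log2 1.35 ± 0.13, SE) and 0.91-fold in NAc (log2 -0.14 ± 0.13). The interaction was 1.49 ± 0.19 with an edgeR adjusted p = 0.00891 and a 95% interval from 1.09 to 1.88.

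Zfp292 (gene 30046, chromosome 4, 34803110 to 34882983) had 4.42, 4.72, 3.44, 3.90 and 4.39 CPM in TG of vehicle mice and 16.4, 15.5, 12.2, 8.30 and 11.9 CPM in TG of morphine mice. In NAc the values were 9.25, 7.97, 7.71, 6.99 and 9.35 CPM after vehicle and 9.70, 5.11, 6.14, 8.43 and 4.95 CPM after morphine. The TG groups stood apart and the NAc groups overlapped, with a wider spread among the morphine mice. In vehicle mice the gene stood higher in NAc than in TG, and in 4 of the 5 morphine mice the order was turned. The interaction was 1.89 ± 0.28 (adjusted p = 0.0138), with 3.08-fold in TG and 0.832-fold in NAc.

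Arfgef3 (gene 215821, chromosome 10, 18588011 to 18743758) rose from 20.2 ± 1.12 to 30.8 ± 3.52 CPM in TG (SD, n = 5) and stood at 16.6 ± 1.17 and 16.5 ± 1.13 CPM in NAc. The TG library of morphine mouse M4 had the lowest morphine value for each of the 3 genes (24.9 CPM for Arfgef3) and still lay above all vehicle ganglia. Its interaction was 0.62 ± 0.10 with an adjusted p = 0.0451. With the mouse block, adjusted p was 0.119 for Lnpep, 0.198 for Zfp292 and 0.222 for Arfgef3. Over 41 alternative settings it ran from 1.33e-10 to 0.154 for Lnpep, from 3.16e-08 to 0.198 for Zfp292 and from 1.07e-05 to 0.222 for Arfgef3.

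The 3 genes share long messages. Their longest GENCODE M21 transcripts measure 12052, 9986 and 14579 bases, against a median of 3431 bases over 14720 genes of at least 1 CPM. Over the 884 genes whose longest transcript exceeds 8 kb, the median interaction was 0.04, with a median effect of 0.04 in TG and 0.02 in NAc. The called genes among these 884 were Lnpep, Zfp292 and Arfgef3 themselves, while 0.0394% of all features were called. The SD of the interaction was 0.667 over these 884 genes and 0.271 to 0.446 in the bins of shorter transcripts. Zbed6, a zinc finger gene, also rose in TG (log2 1.58 ± 0.20) with 0.17 ± 0.20 in NAc, and its interaction of 1.41 ± 0.28 missed the threshold (adjusted p = 0.123). Zbed6 belongs to a list of 6 long-message genes that were picked for their rise in TG. Lnpep and Arfgef3 rest on 1 deposited transcript each and Zfp292 on 2, while other models of these genes can lie among the transcripts with no gene name.

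The promoters of Lnpep and Zfp292 are shown as the called genes with the largest rises in TG, with capitals for the E-box CACGTG, the element that the clock activators BMAL1 and CLOCK bind (same on both strands, 250 bases before to 50 after the start, RefSeq GRCm38.p6). Lnpep (chr17:17624440-17624739, minus strand) holds none and Zfp292 (chr4:34882899-34883198, minus strand) holds 2. An E-box stands in 7.15% of 32851 such windows. A match is a run of letters and not a measured site.
Lnpep: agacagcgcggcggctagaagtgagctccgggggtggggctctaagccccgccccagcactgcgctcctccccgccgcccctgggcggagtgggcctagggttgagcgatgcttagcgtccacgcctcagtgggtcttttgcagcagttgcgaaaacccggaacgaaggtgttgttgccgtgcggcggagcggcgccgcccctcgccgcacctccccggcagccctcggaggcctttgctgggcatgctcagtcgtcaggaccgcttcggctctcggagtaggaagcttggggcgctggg
Zfp292: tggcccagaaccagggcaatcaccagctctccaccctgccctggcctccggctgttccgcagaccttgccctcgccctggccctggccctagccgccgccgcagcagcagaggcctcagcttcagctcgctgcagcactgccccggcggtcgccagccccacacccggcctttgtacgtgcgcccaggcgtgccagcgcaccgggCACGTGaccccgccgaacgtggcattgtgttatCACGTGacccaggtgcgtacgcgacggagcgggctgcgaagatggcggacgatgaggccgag

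Gm33320 and Gm33449 are neighbouring long noncoding RNA genes on chromosome 6 for which the files and references give no function. They lie 5446 bases apart between the potassium channel genes Kcna5 and Kcna1. Both moved in opposite directions in the 2 tissues. Gm33320 (gene 102636180, chromosome 6, 126549322 to 126558592) had 85.1, 80.0, 98.0, 98.6 and 95.7 CPM in TG of vehicle mice and 65.4, 75.4, 73.1, 75.4 and 71.6 CPM in TG of morphine mice. In NAc it had 27.3, 22.0, 28.6, 25.7 and 26.1 CPM after vehicle and 29.4, 31.4, 31.5, 33.9 and 33.7 CPM after morphine. All 5 morphine ganglia lay below all vehicle ganglia, and all 5 morphine accumbens libraries lay above all vehicle ones.

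The change of Gm33320 was 0.789-fold in TG (log2 -0.34 ± 0.07, adjusted p = 0.0588) and 1.23-fold in NAc (log2 0.30 ± 0.07, adjusted p = 0.0973), so that neither tissue passed alone. The difference between them did, at -0.64 ± 0.10 (adjusted p = 0.0220). Within each mouse, the level in TG exceeded that in NAc by 1.604, 1.82, 1.74, 1.897 and 1.83 log2 units in vehicle mice and by 1.13, 1.24, 1.19, 1.13 and 1.07 in morphine mice, on the log2(CPM + 1) scale. With the mouse block its adjusted p was 0.0462, and limma on the within-mouse differences gave 0.0239. Over 41 alternatives the adjusted p ran from 1.55e-06 to 0.108. Of its 2 deposited transcripts the more abundant had mean levels of 78.1 CPM (vehicle) and 58.8 CPM (morphine) in TG and of 23.1 and 26.8 CPM in NAc. The other was level in TG, at 13.4 CPM in both groups, and had 2.86 CPM (vehicle) and 5.13 CPM (morphine) in NAc. The fall in TG thus lay in the more abundant transcript alone.

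The promoter of Gm33320 (chr6:126558543-126558842, minus strand, RefSeq GRCm38.p6) is shown because its call held with the mouse block. It holds 35.3% G and C and 0 CpG, against medians of 52.7% and 7 over all windows, and no E-box, so no letters are in capitals.
Gm33320: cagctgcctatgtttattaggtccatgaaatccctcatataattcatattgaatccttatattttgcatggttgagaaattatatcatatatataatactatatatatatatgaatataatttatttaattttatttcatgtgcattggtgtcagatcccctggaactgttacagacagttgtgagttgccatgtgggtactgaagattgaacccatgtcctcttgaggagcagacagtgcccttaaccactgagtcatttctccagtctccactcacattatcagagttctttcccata

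Gm33449 (gene 102636362, chromosome 6, 126564039 to 126587905) was lower in TG after morphine, with 4.15, 5.37, 2.20, 1.66 and 2.30 CPM in vehicle mice and 1.01, 0.849, 1.26, 1.11 and 1.29 CPM in morphine mice. In NAc it had 1.86, 1.73, 2.24, 1.70 and 2.57 CPM after vehicle and 3.07, 3.51, 2.45, 3.35 and 3.23 CPM after morphine. The TG groups did not overlap, and vehicle mice V1 and V2 were highest. In NAc only vehicle mouse V5 reached above the lowest morphine library. The fold change was 0.352 in TG (log2 -1.51 ± 0.26, adjusted p = 0.0188, and 0.136 in a fit on TG alone) and 1.55 in NAc (log2 0.63 ± 0.25, adjusted p = 0.475). The interaction was -2.13 ± 0.36 (adjusted p = 0.0451, 0.475 with the mouse block, 1.98e-05 to 0.475 over 41 alternatives).

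The neighbours of the pair, looked up after their values were known, had the same sign without passing. Kcna1, which encodes a potassium channel that limits repetitive firing of axons, had an interaction of -0.38 ± 0.14 (adjusted p = 0.554), with log2 -0.14 ± 0.10 in TG and 0.25 ± 0.10 in NAc. Kcna5, a related channel gene, had -0.23 ± 0.19, and the long noncoding RNA Gm38899 -0.60 ± 0.37. These were all the genes tested, 5 of 6, within 100000 bases.

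**Figure D2:**
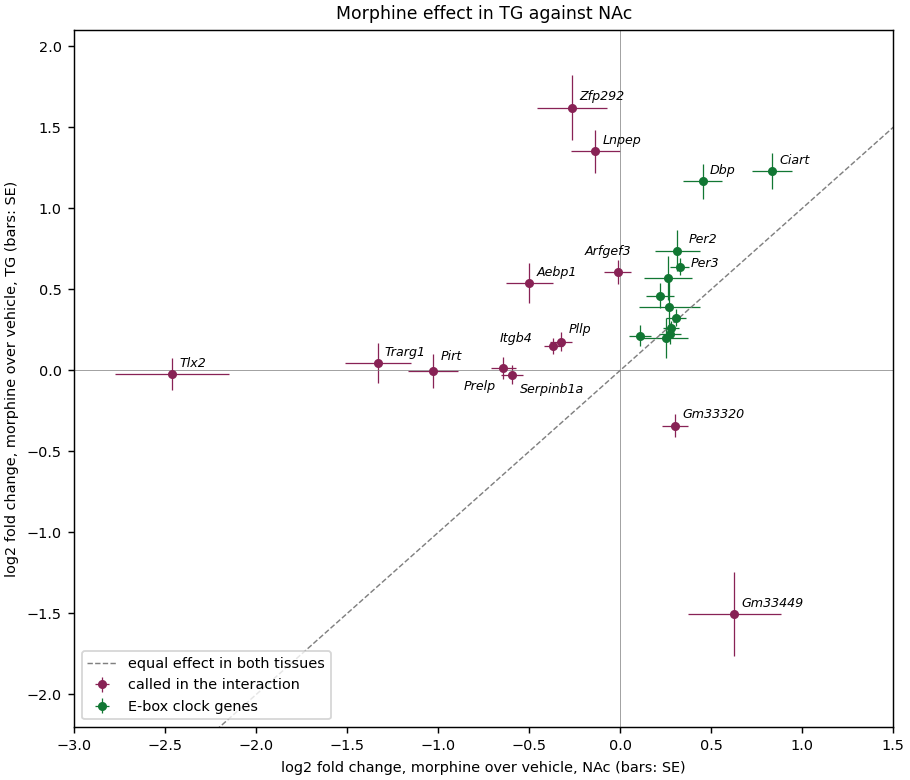
Log2 fold change of morphine over vehicle in TG (vertical axis) against that in NAc (horizontal axis), with SE bars from the fit on 20 libraries, for the 13 called genes (purple) and 12 clock genes driven through E-boxes (green). Distance from the dashed line of equal effects is the interaction. Gm33320 and Gm33449 lie at the lower right, Lnpep and Zfp292 at the top, and the clock genes to the right of 0 and above 0 in both tissues.

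Prelp, Itgb4, Serpinb1a, Pllp and Aebp1 were lower in NAc after morphine, relative to TG. Prelp encodes a small leucine-rich proteoglycan of connective tissue, Itgb4 the integrin beta 4 chain that binds laminin, Serpinb1a an inhibitor of serine proteases, Pllp the myelin protein plasmolipin, and Aebp1 a collagen-binding protein of the extracellular matrix. In NAc of vehicle mice their levels were 67.1%, 13.6%, 12.3%, 32.9% and 27.7% of those in TG.

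Prelp (gene 116847, chromosome 1, 133910304 to 133930102) had 11.9, 11.4, 11.7, 13.5 and 11.8 CPM in NAc of vehicle mice and 7.17, 7.67, 7.71, 8.004 and 8.01 CPM in NAc of morphine mice. In TG it had 18.1, 19.7, 16.1, 16.8 and 18.9 CPM after vehicle and 19.1, 16.9, 19.6, 19.0 and 16.1 CPM after morphine. The NAc groups stood far apart and the TG groups coincided. The fold change was 0.641 in NAc (log2 -0.64 ± 0.07) and 1.01 in TG (log2 0.02 ± 0.07), and the interaction was 0.66 ± 0.10 (adjusted p = 0.0138). The other 8 genes of the fibroblast and meningeal matrix list, to which Prelp belongs, were not called, among them Ogn (0.25 ± 0.20) and Slc6a13 (0.39 ± 0.18). The summed level of that list did not overlap between treatments in either tissue: it ran from 43.4 to 55.2 CPM in vehicle and from 34.7 to 42.5 CPM in morphine libraries of NAc, and from 1273 to 1400 CPM and from 1093 to 1268 CPM in TG. Its part in the result for Prelp was not tested.

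Serpinb1a (gene 66222, chromosome 13, 32842092 to 32853206) had 7.47, 8.01, 9.31, 8.27 and 9.33 CPM in NAc of vehicle mice and 5.35, 5.58, 5.33, 5.77 and 6.07 CPM in NAc of morphine mice. In TG it lay between 64.7 and 73.9 CPM after vehicle and between 65.4 and 71.3 CPM after morphine. The NAc groups did not overlap, while the TG morphine values lay within the vehicle range. The interaction was 0.57 ± 0.08 (adjusted p = 0.0138), with log2 -0.59 ± 0.06 in NAc and -0.03 ± 0.06 in TG.

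Itgb4 (gene 192897, chromosome 11, 115974725 to 116008412) had 12.1, 13.0, 12.5, 12.6 and 13.4 CPM in NAc of vehicle mice and 8.59, 10.1, 9.64, 10.6 and 10.5 CPM in NAc of morphine mice. In TG it lay between 86.8 and 98.4 CPM after vehicle and between 98.2 and 107 CPM after morphine. Every NAc morphine library was below every NAc vehicle library, and in TG only the values near 98 CPM overlapped. The interaction was 0.52 ± 0.07 (adjusted p = 0.00891), with log2 -0.37 ± 0.05 in NAc and 0.15 ± 0.05 in TG. The most abundant deposited transcript of Itgb4 did not fall in NAc, with means of 4.64 CPM after vehicle and 4.86 CPM after morphine. The largest falls there were in less abundant transcripts, from 3.73 to 2.13 CPM and from 2.44 to 1.36 CPM.

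Pllp (gene 67801, chromosome 8, 94674895 to 94696242) fell in NAc from 40.1 ± 2.55 to 32.0 ± 1.03 CPM (SD, n = 5; log2 -0.33 ± 0.06) and stood at 122 ± 10.6 and 138 ± 9.83 CPM in TG (log2 0.18 ± 0.06). All 5 NAc morphine libraries lay below all 5 vehicle libraries, and the TG groups overlapped. The interaction was 0.50 ± 0.085 (adjusted p = 0.0451).

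Aebp1 (gene 11568, chromosome 11, 5861866 to 5872248) is named beyond the 10 genes with the smallest p, after its values were seen. It had 25.7, 31.3, 25.4, 31.6 and 30.8 CPM in TG of vehicle mice and 54.0, 40.03, 45.9, 37.1 and 33.5 CPM in TG of morphine mice. In NAc it lay between 6.85 and 9.42 CPM after vehicle and between 5.01 and 6.79 CPM after morphine. The groups stood apart in both tissues, in opposite directions, and neither tissue passed alone (log2 0.54 ± 0.12 in TG, adjusted p = 0.117, and -0.50 ± 0.13 in NAc, adjusted p = 0.143). The interaction was 1.04 ± 0.18 (adjusted p = 0.0451).

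With the mouse block, adjusted p was 0.458 for Prelp, 0.198 for Itgb4, 0.198 for Serpinb1a, 0.458 for Pllp and 0.386 for Aebp1. Over 40 or 41 alternatives the largest adjusted p of each gene was that of the mouse block, and the smallest was that of DESeq2, from 4.38e-10 for Itgb4 to 1.63e-05 for Aebp1. In fits on the NAc libraries alone, adjusted p was 0.0748 for Prelp, 0.133 for Serpinb1a, 0.161 for Pllp, 0.318 for Itgb4 and 0.406 for Aebp1.

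Tlx2, Trarg1 and Pirt belong to TG and had positive interactions through lower values in NAc. Tlx2 encodes a homeobox transcription factor of neurons derived from the neural crest, Trarg1 a membrane protein that in fat cells regulates the traffic of GLUT4, and Pirt a membrane protein of sensory neurons that regulates the heat and capsaicin channel TRPV1. All 3 are among the 36 genes that define the TG-like share, so their fall in NAc and the fall of that share describe the same libraries.

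Trarg1 (gene 237858, chromosome 11, 76679873 to 76698664) had 2.00, 1.93, 2.24, 2.06 and 1.12 CPM in NAc of vehicle mice and 0.886, 0.770, 1.01, 0.477 and 0.550 CPM in NAc of morphine mice. In TG it lay between 469 and 523 CPM after vehicle and between 471 and 557 CPM after morphine. The NAc groups did not overlap, and vehicle mouse V5, whose NAc library had the lowest TG-like share of its group, lay closest to the morphine mice. The interaction was 1.38 ± 0.22 (adjusted p = 0.0278).

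Pirt (gene 193003, chromosome 11, 66911905 to 66929877) had 3.16, 2.71, 3.28, 2.74 and 2.03 CPM in NAc of vehicle mice and 1.98, 1.24, 1.07, 1.24 and 1.27 CPM in NAc of morphine mice. In TG it lay between 764 and 841 CPM and between 724 and 870 CPM. The morphine library nearest to the vehicle group was that of mouse M1, whose NAc library had the highest TG-like share of its group (0.220%). The interaction was 1.02 ± 0.18 (adjusted p = 0.0451).

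Tlx2 (gene 21909, chromosome 6, 83068325 to 83070225) rested on few reads in NAc, with 9, 6, 10, 10 and 9 counts in vehicle mice and 2, 0, 2, 1 and 3 counts in morphine mice, against 2570 to 3447 counts in TG. Its interaction was 2.44 ± 0.33 (adjusted p = 0.00891), with log2 -0.02 ± 0.10 in TG and -2.46 ± 0.31 in NAc.

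When the estimated counts of the other tissue were subtracted from every library, an alternative added after the data had been seen, 6 of the 13 interactions passed: those of Lnpep, Zfp292, Gm33320, Itgb4, Prelp and Serpinb1a. Adjusted p was then 0.739 for Tlx2, 0.806 for Trarg1 and 0.961 for Pirt, the highest of the alternatives of each gene (lowest 0.00245, 1.53e-09 and 6.69e-08 with DESeq2), and 0.0559 for Arfgef3, 0.0559 for Pllp, 0.0559 for Gm33449 and 0.0603 for Aebp1. Tlx2, Trarg1 and Pirt are among the 36 genes that set the share, so the subtraction removes most of their NAc counts by construction. Their values after subtraction therefore cannot test their calls. The size of the interaction after subtraction was 2.57 for Tlx2, 1.44 for Trarg1, 1.11 for Pirt, 0.63 for Arfgef3, 0.50 for Pllp, -2.15 for Gm33449 and 1.04 for Aebp1. With the mouse block, adjusted p was 0.198, 0.475 and 0.458 for Tlx2, Trarg1 and Pirt. Without the NAc library of V5 the count of called interactions rose to 33 (30 positive, 3 negative), 20 of them genes over 16-fold higher in TG than in NAc, where the main test had 3.

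**Figure D3:**
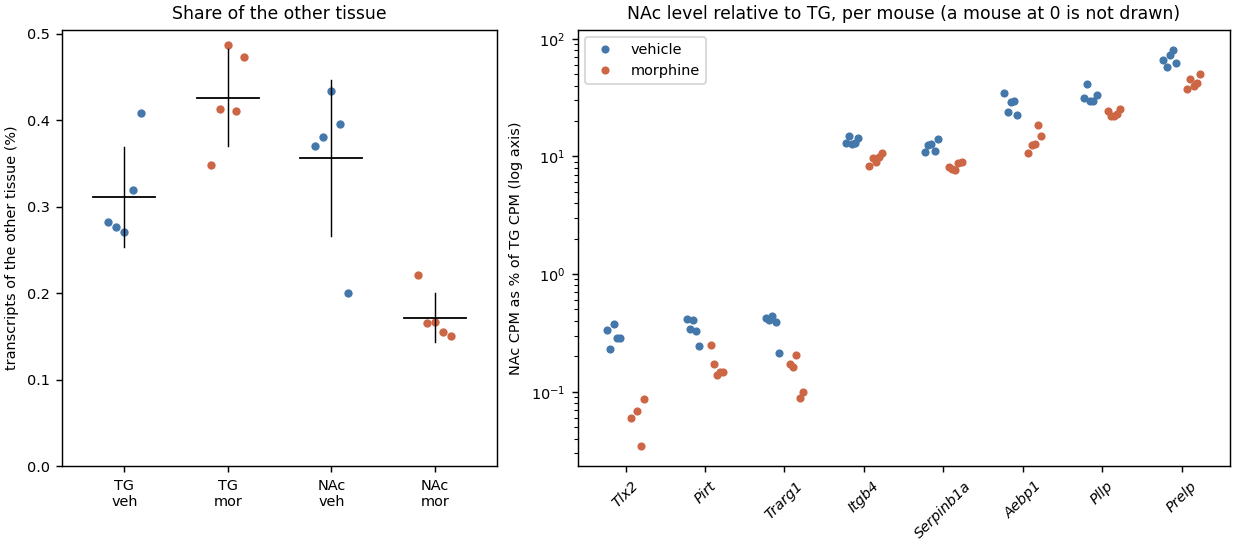
Left, share of transcripts typical of the other tissue (percent), by group, with points for libraries and bars for mean and SD of 5. Right, NAc level as a percentage of the TG level of the same mouse on a log axis, for the 8 called genes with lower values in NAc. Tlx2, Pirt and Trarg1 lie at 0.439% or lower, while Itgb4, Serpinb1a, Aebp1, Pllp and Prelp lie between 7.72% and 80.1%.

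The tissue difference within each mouse is the same quantity that called these genes, in the same libraries, and is given as a description. For 10 of the 13 genes (all but Tlx2, Trarg1 and Pirt) the 5 morphine mice and the 5 vehicle mice did not overlap in the TG minus NAc difference of log2(CPM + 1), as was the case for 1.24% of all features (0.718% with morphine mice higher and 0.521% with morphine mice lower). A 2-sided exact permutation test over mice gave p = 0.00794 for each of these 10, the smallest that 5 against 5 mice allow. It gave exact p = 0.0159 for Trarg1 and Pirt and 0.0794 for Tlx2, whose low counts the pseudocount of 1 compresses. Across all features, limma on these differences called 3, of which 1, Gm33320, is among the 13.

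**Figure D4:**
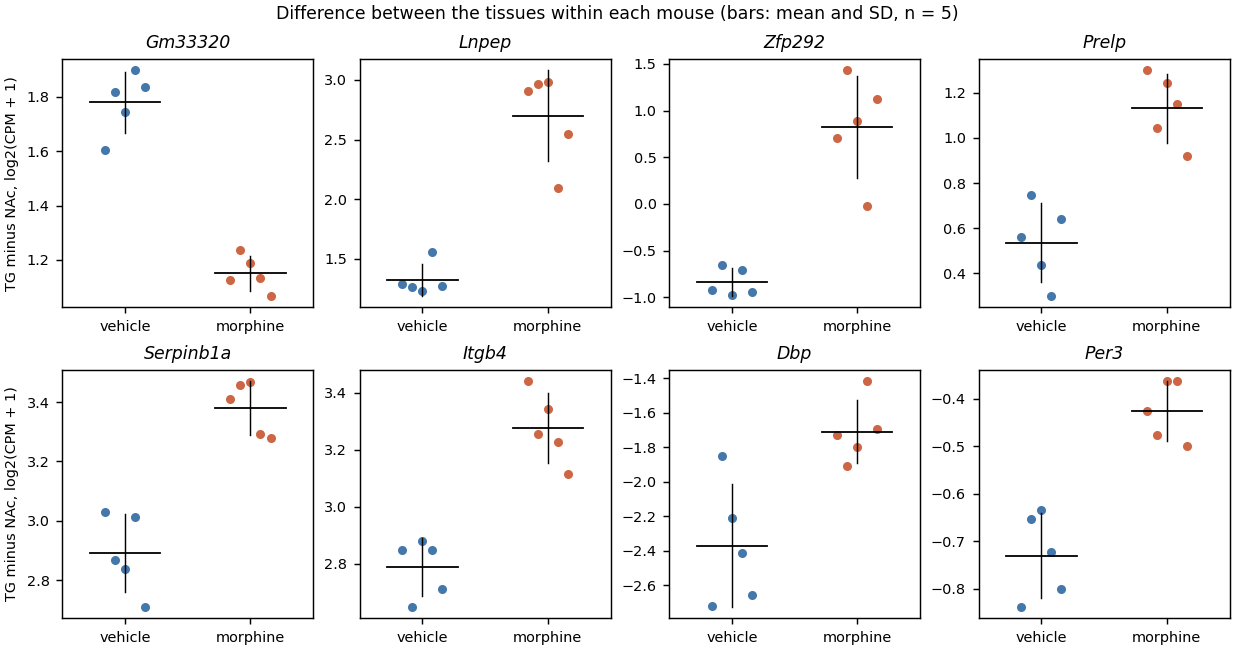
TG minus NAc difference of log2(CPM + 1) within each mouse, for 6 called genes and the clock genes Dbp and Per3, with points for mice and bars for mean and SD of 5. Vehicle and morphine mice overlap in the panel of Dbp and in none of the other 7.

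Clock genes responded in the same direction in both tissues, and no difference between the tissues passed. The transcription factors BMAL1 and CLOCK drive the period, cryptochrome and Rev-erb genes and the output factors Dbp, Tef and Hlf through E-boxes. All 12 measured genes of this list were higher after morphine in TG and in NAc, with a median log2 fold change of 0.43 in TG and 0.28 in NAc. In the fit on 20 libraries, 7 of the 12 passed in TG and 4 in NAc, where 0.148% and 0.0455% of all features were called higher. The fit on the NAc libraries alone called 0 features in all, with an adjusted p of 0.126 for Ciart and 0.161 for Per3. The interaction was positive for 9 and negative for 3, its median was 0.18 beside 0.01 over all features, and 0 were called in edgeR, with 5 at an unadjusted p under 0.05 (3.88% of all features were positive at that level). DESeq2 called Dbp and Per3, out of 229 features in all (0.694%; 171 positive, 0.518%, and 58 negative, 0.176%).

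Dbp, an output factor whose level follows the clock, had 14.8, 19.1, 16.7, 17.3 and 16.5 CPM in TG of vehicle mice and 38.7, 33.9, 39.9, 43.3 and 33.9 CPM in TG of morphine mice. In NAc it had 103, 71.3, 81.1, 96.6 and 109 CPM after vehicle and 131, 130, 141, 117 and 112 CPM after morphine. The groups stood apart in both tissues, widely in TG and narrowly in NAc. The fold change was 2.25 in TG (log2 1.17 ± 0.11) and 1.37 in NAc (log2 0.45 ± 0.11, adjusted p = 0.0973), and the interaction was 0.72 ± 0.15 (adjusted p = 0.132, 0.00215 to 0.739 over 40 alternatives; exact permutation p = 0.0159 within mice).

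Per3, a period gene, had 41.4, 40.9, 41.3, 39.1 and 35.4 CPM in TG of vehicle mice and 61.3, 61.5, 64.8, 65.5 and 55.9 CPM in TG of morphine mice. In NAc it had 74.8, 64.9, 64.7, 65.2 and 62.4 CPM after vehicle and 82.7, 86.0, 83.7, 84.6 and 79.4 CPM after morphine. It rose in both tissues with no overlap, by log2 0.64 ± 0.05 in TG and 0.33 ± 0.05 in NAc. The interaction was 0.31 ± 0.08 (adjusted p = 0.210, 0.00962 to 0.458 over 41 alternatives). Within mice the exact permutation p was 0.00794, the smallest that 5 against 5 mice allow. The mouse groups stood apart in this way for 1.24% of all features. Dbp and Per3 had the smallest interaction p of their list. Their permutation p describes the same contrast in the same libraries and is not separate support.

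Ciart, a repressor of the activators, rose in both tissues, by 2.34-fold in TG and 1.78-fold in NAc, with an interaction of 0.39 ± 0.15 (adjusted p = 0.640). Per2 had 0.43 ± 0.18 and the Rev-erb gene Nr1d1 0.24 ± 0.11, with increases that passed in TG. Tef (0.02 ± 0.08) and Nr1d2 (-0.02 ± 0.06) rose in both tissues by nearly the same amount, 1.25-fold and 1.24-fold for Tef and 1.20-fold and 1.21-fold for Nr1d2. Hlf (0.31), Per1 (0.12), Cry2 (0.11), Bhlhe40 (-0.05) and Bhlhe41 (-0.05) completed the list.

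Of the 8 activators and genes of the opposite phase, 0 were called by edgeR, DESeq2 or voom, with 1 at an unadjusted p under 0.05 in each, and the median interaction was -0.01. That 1 gene was Arntl, which encodes BMAL1. It had 8.79, 6.60, 7.47, 5.35 and 8.30 CPM in TG of vehicle mice and 4.80, 4.18, 4.29, 4.22 and 3.11 CPM in TG of morphine mice, with no overlap, while in NAc the 5 vehicle values (24.1 to 51.0 CPM) enclosed all morphine values (27.9 to 32.8 CPM). Its interaction was -0.62 ± 0.23 (adjusted p = 0.612).

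Promoters of Ciart and Per3 are shown as the clock genes with the most motif matches, with capitals for the E-box in Ciart (chr3:95882179-95882478, minus strand) and for the D-box TTATGTAA, an element bound by DBP, TEF and HLF, in Per3 (chr4:151044616-151044915, minus strand). Ciart holds 3 E-boxes and Per3 holds 2 D-boxes and no E-box. The D-box was searched as TTATGTAA and TTACGTAA on both strands and stands in 1.06% of all windows. Of the 10 clock genes with a promoter window, 4 had an E-box and 1 a D-box, and of the 7 called genes with a window 1 had an E-box, namely Zfp292.
Ciart: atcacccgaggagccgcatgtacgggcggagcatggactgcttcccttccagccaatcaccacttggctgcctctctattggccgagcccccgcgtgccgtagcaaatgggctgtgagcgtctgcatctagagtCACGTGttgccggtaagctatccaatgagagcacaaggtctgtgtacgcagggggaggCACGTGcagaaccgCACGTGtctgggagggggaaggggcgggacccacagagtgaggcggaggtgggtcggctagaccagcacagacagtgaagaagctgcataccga
Per3: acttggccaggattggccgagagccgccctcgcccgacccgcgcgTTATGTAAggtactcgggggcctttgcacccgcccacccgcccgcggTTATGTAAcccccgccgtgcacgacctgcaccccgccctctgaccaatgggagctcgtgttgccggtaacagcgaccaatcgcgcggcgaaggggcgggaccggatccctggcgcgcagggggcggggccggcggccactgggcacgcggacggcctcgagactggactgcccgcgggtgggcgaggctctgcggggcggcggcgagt

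Opioid receptors and peptide precursors showed no called difference between the tissues. Of 8 measured genes, 0 were called by edgeR, DESeq2 or voom, with 0 at an unadjusted p under 0.05 in edgeR and voom and 1 in DESeq2, and the median interaction was 0.11. Oprm1, the mu receptor that binds morphine, had 1.19, 1.09, 0.938, 1.30 and 1.34 CPM in TG of vehicle mice and 2.88, 1.90, 1.86, 1.29 and 1.69 CPM in TG of morphine mice. In NAc it lay between 1.06 and 1.73 CPM after vehicle and between 1.36 and 1.70 CPM after morphine. The groups overlapped in both tissues, and the interaction was 0.53 ± 0.26 with a 95% interval from -0.01 to 1.07 (adjusted p = 0.746). The delta receptor gene Oprd1 (-0.25 ± 0.19), the kappa receptor gene Oprk1 (-0.10 ± 0.14) and the nociceptin receptor gene Oprl1 (0.20 ± 0.28) lay on both sides of 0. Enkephalin (Penk, 0.02 ± 0.67), dynorphin (Pdyn, -0.11 ± 0.32), nociceptin (Pnoc, 0.58 ± 0.77) and proopiomelanocortin (Pomc, 1.32 ± 1.47) precursors had wide errors. The 18 signalling partners of the receptors, such as G protein, adenylyl cyclase, arrestin and potassium channel genes, had a median interaction of 0.03, between -0.23 and 0.28, with 0 called by each of the 3 tools and 0 at an unadjusted p under 0.05.

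Most genes of 3 lists that mark TG cells had positive interactions, with median effects below 0 in NAc and near 0 in TG, while a list of satellite glia genes of the ganglia did not stand out (5 of 8 positive, median 0.07, 0 called by edgeR and voom and Glul alone by DESeq2). Of 16 nociceptor genes 15 were positive, with a median interaction of 0.79, a median effect of -0.04 in TG and of -0.80 in NAc. Of 10 sensory neuron identity genes 9 were positive (median 0.51), and of 10 Schwann cell genes 7 (median 0.57). EdgeR called 0 in each of the 3 lists, with 8, 7 and 6 positive members at an unadjusted p under 0.05, and DESeq2 called 2, 3 and 5. Over all features, DESeq2 called 0.518% positive, and 3.88% were positive at that unadjusted level in edgeR. Of the 1119 features over 16-fold higher in TG in vehicle mice, 56.4% were positive, with a median of 0.11. A positive lean was not particular to them: of the 1377 features over 16-fold higher in NAc, 64.9% were positive, with a median of 0.27. In edgeR 212 of the 1119 features higher in TG (18.9%) had an unadjusted p under 0.05, and 128 of the 212 were positive. Within the 3 lists, the negative members at that level were Tac1, the substance P precursor (-0.45 ± 0.19), and Pmp2, a lipid-binding myelin protein gene (-0.84 ± 0.32).

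The acid-sensing channel gene Asic3 had 0.89 ± 0.17 (adjusted p = 0.114) and the sensory neuron gene Avil 0.91 ± 0.19 (adjusted p = 0.132). The summed levels of the lists in NAc overlapped between treatments: 233 to 299 CPM after vehicle and 282 to 355 CPM after morphine for nociceptor genes, 187 to 256 and 172 to 206 CPM for sensory neuron genes, and 145 to 174 and 125 to 159 CPM for Schwann cell genes. After subtraction of the other tissue the 3 medians were 0.37, 0.19 and 0.13. The part of the TG-like share in the values of these lists beyond that subtraction was not tested.

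**Figure D5:**
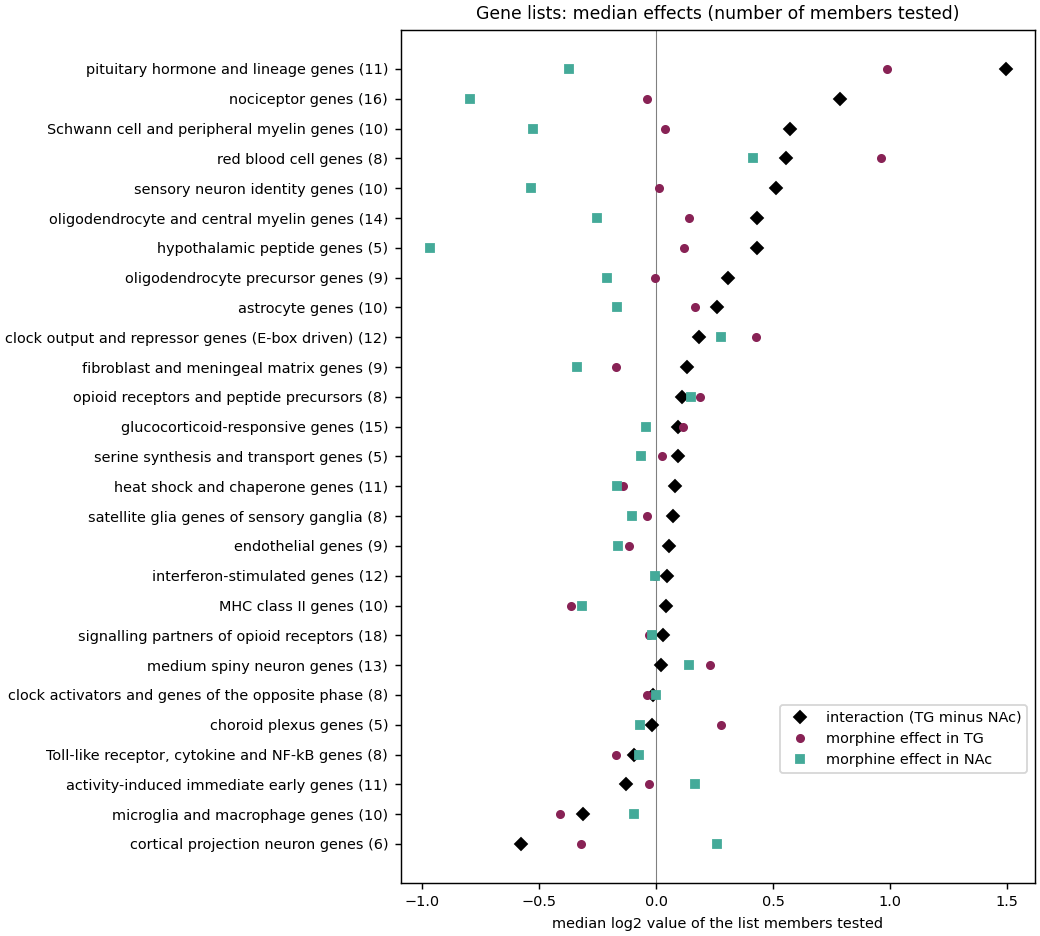
Median log2 interaction (black diamonds) and median log2 fold change of morphine over vehicle in TG (purple circles) and NAc (green squares) for 27 gene lists, with the number of members tested in brackets. Nociceptor, Schwann cell and sensory neuron lists have medians near 0 in TG and below -0.5 in NAc, and the clock list is above 0 in both tissues.

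Lists named for glia of the brain also lay on the positive side. Some of their genes stood higher in TG than in NAc in vehicle mice, so the values are not those of brain glia alone. All 14 oligodendrocyte genes had positive interactions, between 0.12 and 0.83, with a median of 0.43 (0.14 in TG and -0.25 in NAc). EdgeR, DESeq2 and voom called 0, with 3, 4 and 2 at an unadjusted p under 0.05. Myelin basic protein (Mbp) had 0.29 ± 0.12 and the paranodal myelin enzyme gene Cnp 0.31 ± 0.09. The summed level of the list in NAc ran from 3932 to 4570 CPM after vehicle and from 3455 to 3877 CPM after morphine, without overlap, and in TG the groups overlapped (4432 to 5859 and 4458 to 6311 CPM). Oligodendrocyte precursor genes were positive for 8 of 9 (median 0.31), and their sum in NAc ran from 500 to 615 CPM after vehicle and from 397 to 490 CPM after morphine. Astrocyte genes were positive for 10 of 10 (median 0.26). Each of the 3 tools called 0 in both lists, with 2 precursor and 3 astrocyte genes at an unadjusted p under 0.05 in edgeR. The summed level of astrocyte genes overlapped between treatments in NAc, at 3536 to 4320 and 3762 to 4003 CPM.

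For microglia genes, 8 of 10 interactions were negative with a median of -0.31, which rested on the TG library of vehicle mouse V2. The summed level of the list was 121 CPM in that library, 47.9 to 51.4 CPM in the other 4 vehicle ganglia and 39.1 to 49.9 CPM in the morphine ganglia. Without it, 4 of 10 were negative and the median was 0.02. EdgeR, DESeq2 and voom called 0, with 1 negative member at an unadjusted p under 0.05 in each and 1 positive in DESeq2 and voom. In edgeR that member was Aif1, a macrophage protein gene, at -1.72 ± 0.74, and -0.49 without the V2 ganglion, which held 11.8 CPM against 1.11 to 1.76 CPM in the other 4. Medium spiny neuron genes had a median of 0.02, which was -0.09 after subtraction and -0.10 with the mouse block, and 0 of 13 were called by the 3 tools (2 at an unadjusted p under 0.05 in edgeR). The lists of pituitary (median 1.49, 10 of 11 positive), red blood cell (0.55, 8 of 8) and cortical genes (-0.58, 6 of 6 negative) had 0 calls in edgeR, DESeq2 and voom and 0 at an unadjusted p under 0.05 in each, and their summed levels varied between libraries of a group as given above for pituitary and cortex. Without single libraries these medians ran from 0.99 to 2.41, from 0.37 to 0.88 and from -1.33 to -0.03, the last without the NAc library of M3.

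Among stress and metabolic genes the metallothioneins Mt1 (0.38 ± 0.08, adjusted p = 0.139) and Mt2 (0.51 ± 0.15) had opposite signs in the 2 tissues, at 0.19 and 0.24 in TG and -0.19 and -0.26 in NAc. Neither passed in either tissue, and the 15 glucocorticoid-responsive genes to which they belong had a median of 0.09. Phgdh, the entry enzyme of serine synthesis, had 42.9, 42.7, 42.2, 43.1 and 42.5 CPM in NAc of morphine mice and 52.8, 49.95, 52.3, 52.2 and 55.3 CPM in NAc of vehicle mice, with no overlap. In TG it stood at 54.1 ± 4.48 and 55.3 ± 3.02 CPM (SD, n = 5), and the interaction was 0.33 ± 0.07 (adjusted p = 0.132). The other 4 genes of that pathway lay between -0.03 and 0.15.

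Immediate early genes, which neurons switch on with activity, had a median of -0.13, with Junb at -0.59 ± 0.25 (adjusted p = 0.677) and Egr3 at -0.61 ± 0.29 (adjusted p = 0.730) as the 2 members with an unadjusted p under 0.05. EdgeR, DESeq2 and voom called 0 of the 11, and the median was 0.05 in voom. Heat shock genes (0.08), interferon-stimulated genes (0.05), class II histocompatibility genes (0.04) and cytokine genes (-0.10) had medians near 0 with 0 called by edgeR, DESeq2 or voom. In edgeR 1 heat shock, 2 interferon and 1 cytokine gene had an unadjusted p under 0.05, and no class II gene did.

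Below the 2 called genes, the smallest p on the negative side belonged to Ugt1a6a, a glucuronosyltransferase gene (-0.50 ± 0.10, adjusted p = 0.123), Rnf168, a ubiquitin ligase gene of the DNA damage response (-0.19 ± 0.04, adjusted p = 0.132), and Atxn3, which encodes the deubiquitinase ataxin 3 (-0.21 ± 0.04, adjusted p = 0.132). Ugt1a6a and Atxn3 rose in NAc, from 2.05 to 2.80 CPM and from 48.6 to 56.8 CPM as means, and stood at log2 -0.05 ± 0.07 and 0.01 ± 0.03 in TG. Rnf168 passed in neither tissue, at log2 -0.08 in TG and 0.11 in NAc.

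By tissue preference, 8 of the called genes were among the 26070 features within 4-fold between the tissues in vehicle mice, 2 among the 2159 that were 4- to 16-fold higher in TG and 3 among the 1119 over 16-fold higher in TG. The 2276 features 4- to 16-fold higher and the 1377 over 16-fold higher in NAc held 0 called genes, against 9 and 30 of the 229 that DESeq2 called. An unadjusted p under 0.05 was reached by 5.82% of features within 4-fold, by 18.9% of those over 16-fold higher in TG and by 12.3% of those over 16-fold higher in NAc. Tested among the features within 4-fold alone, 4 interactions passed, those of Lnpep, Zfp292, Prelp and Gm33320.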

How the data were processed

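RNA of trigeminal ganglia and nucleus accumbens from 10 mice was sequenced after TRIzol and RNeasy extraction with a stranded poly(A) kit, per the labels' protocols. The submitters' processing notes name kallisto 0.43 and GRCm38; the sources used here do not give its index and settings. The values the authors deposited are estimated counts for 107185 RefSeq transcripts in 20 libraries, and 56.7% of them are not whole. Here they were summed per gene by RefSeq identifier (86605 transcripts matched, holding 90.0% of all counts), the 20580 unmatched transcripts were kept as features of their own, and sums were rounded. Totals per library were 52402037 to 76110288.

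In R 4.3.3, edgeR 4.0.16 filtered features (filterByExpr, 33001 of 53521 kept), scaled libraries by TMM and fitted 4 group means with robust quasi-likelihood. The interaction is (morphine minus vehicle in TG) minus (morphine minus vehicle in NAc), and SE is the estimate divided by the square root of F. A call needs a Benjamini-Hochberg adjusted p under 0.05 over all features. CPM values are scaled by TMM. Within-mouse differences used log2(CPM + 1) and a 2-sided exact permutation test over mice. The mouse codes in the sample titles pair the tissues, since both came from the same animal; the deviations of its 2 libraries from their group means correlated between -0.0389 and 0.0205 over 22497 features. Replicates of a group differed by more than sampling noise (chi-square per gene at least 12.3). The lanes of the libraries are not given, so no batch term was fitted.

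The share of the other tissue is the ratio of the summed level of genes at least 200-fold higher in the other tissue (and at least 20 CPM there) to their level in it. Genes named are up to 10 per direction by p among those called, filled to 5, up to 3 per list by p, and all clock and opioid members; others are said to be named after their values were seen. The interaction, its members and the lists were chosen with earlier results of these data known. Alternatives were DESeq2 1.42.0, limma 3.58.1 with voom and quality weights, other scalings, filters and feature sets, the mouse block, tissues alone, single libraries or mice left out, and subtraction of the other tissue. The test was checked on simulated counts. Promoter windows and coordinates are RefSeq GRCm38.p6.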

Additional observations from a re-analysis of the deposited data

Results flagged for a closer look

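The 13 called interactions are listed because the effect of morphine differed between the tissues by edgeR's test of the difference itself. On the log2 scale they were 1.49 for Lnpep, 2.44 for Tlx2, 0.52 for Itgb4, 1.89 for Zfp292, 0.57 for Serpinb1a, 0.66 for Prelp, -0.64 for Gm33320, 1.38 for Trarg1, 0.62 for Arfgef3, 0.50 for Pllp, -2.13 for Gm33449, 1.02 for Pirt and 1.04 for Aebp1.

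In 10 of 136 groups of 5 libraries, 1 library stood apart by Dixon's test, which chance does in about 1 of 20 groups. Prelp had 13.5 CPM in NAc of vehicle mouse V4, with 11.4 to 11.9 CPM in the other 4. Trarg1 had 1.12 CPM in NAc of V5, with 1.93 to 2.24 CPM in the others, and the TG-like share of that library was 0.2% against 0.37% to 0.434%. Pirt had 1.98 CPM in NAc of morphine mouse M1 (others 1.07 to 1.27 CPM) and Avil 2.37 CPM (others 1.45 to 1.71 CPM), and the TG-like share of that library was 0.22% against 0.15% to 0.167%.

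Per3 had 74.8 CPM in NAc of V1 (others 62.4 to 65.2 CPM). Among opioid receptor genes, Oprd1 had 24.4 CPM in TG of V1 (others 26.0 to 26.5 CPM), Oprk1 9.72 CPM in TG of M2 (others 7.85 to 8.31 CPM) and Oprl1 60.6 CPM in NAc of V2 (others 19.5 to 28.9 CPM).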

How the results depend on the processing

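The count of 13 interactions (11 positive, 2 negative) was 229 with DESeq2 (171 and 58, all 13 among them), 0 with voom and quality weights (2851 at an unadjusted p under 0.05), 8 with library size alone, 8 without a filter on low counts, 4 over features within 4-fold between the tissues and 6 with the other tissue subtracted, an alternative chosen after seeing the data. It was 14 (9 and 5) over single transcripts and 18 over named genes. With the replicate block (mouse) it was 1, and 3 with limma on the differences within a mouse, where the numbers pair the samples because both tissues came from 1 animal. Without single libraries it ran from 6 to 33, and it moved by over 1.5 times without the TG libraries of M1, M3, M4, M5, V1, V3 or V5 and the NAc libraries of M2, M4, M5 or any of V1 to V5 (33 without V5, 6 to 8 otherwise). Without single mice it ran from 3 to 25. In fits on 1 tissue, the 73 calls in NAc became 0 and the 62 in TG became 53.

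Among named genes, no interaction called in the main fit or in an alternative had the opposite sign in the other fit. Sign changes of interactions called in neither were not counted. Of the values of named genes under the alternatives, 4581 kept their side of the threshold, 34 crossed to a call and 237 lost one. The median interaction of all features moved between 0.00 and 0.02. Medians near 0 changed sign for medium spiny neuron genes (-0.12 in voom), opioid genes (-0.06 in voom), opioid signalling (-0.01 with the block), class II genes (-0.00 in voom), immediate early genes (0.05 in voom) and fibroblast genes (-0.06 with subtraction). Without single libraries, medians of the microglia, satellite glia, cytokine, immediate early, interferon, class II, opioid, medium spiny neuron, clock activator, choroid plexus and hypothalamic lists changed sign. The cause of these moves was not tested. Depth limits the NAc values of Tlx2, at 0 to 10 counts per library.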
